A study of Bos taurus with 6 samples.

Results

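The DNA damage response genes described here are ATM, ATR, CHEK1, CHEK2, BRCA1, BRCA2, MDC1, RNF8 and TOPBP1. They were chosen by gene name in the deposited table of gene expression, which holds 47249 genes, and all 9 were found, each once. In the deposited table of transcripts they account for 32 of 108527 entries. The values come from total RNA of samples labelled as testis of Wandong cattle (Bos taurus), depleted of ribosomal RNA and sequenced with strand kept. The immature group is 3 calves aged 3 months and the mature group is 3 bulls aged 3 years. The authors describe the animals as healthy and name no treatment. Testis slices were taken at slaughter, and each library is 1 animal. Calf 1 to calf 3 and bull 1 to bull 3 are named by their replicate numbers. Values are FPKM, a count of sequenced fragments scaled to the length of the transcript and to the size of the library, which allows levels of different genes to be set side by side.

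ATM and ATR are large protein kinases that stand at the head of the response to damaged DNA. ATM is activated by double-strand breaks, and ATR by single-stranded DNA at stalled replication forks and resected breaks. ATM signals mainly through the checkpoint kinase encoded by CHEK2, ATR mainly through that encoded by CHEK1, and the proteins of the other members gather at the marked chromatin or carry out repair by recombination. In the testis the same proteins serve meiosis, in which spermatocytes cut their own DNA and repair the breaks by recombination. ATM limits the number of those breaks, and ATR with TOPBP1, BRCA1 and MDC1 marks the unpaired X and Y chromosomes, whose genes are then silenced.

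The library labelled calf 3 stood apart from the other calves. The summed FPKM of 8 genes of brain and myelin was 13683 in calf 3 and 6.90 to 12.8 in the other 5 libraries. The summed FPKM of 9 Sertoli cell genes was 2828 and 2702 in the first and the second calf but 462 in calf 3. There WT1, FSHR and GATA4 were listed at 0. Of that sum in calf 3, CLU alone made up 423, and 6 of the 9 genes lay under 1 FPKM. Of 5 Leydig cell genes, all lay under 1 FPKM in calf 3, with HSD17B3 and CYP11A1 at 0, while the summed FPKM of the list was 1377 and 1076 in the other calves. For 1973 of 18115 genes tested, the value of calf 3 was 4-fold or more away from the mean of the other calves. The label of calf 3 is therefore in doubt, and differences between the groups are given with and without it.

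The levels were compared as log2(FPKM + 1) with limma across the 18115 genes that reached 1 FPKM in at least 3 libraries, and all 9 members passed that filter. A gene was called when its Benjamini-Hochberg adjusted p was below 0.05 and its level differed at least 2-fold on that scale, which understates the change of low genes. The log2 differences below are bulls minus calves. In these bulk samples, fewer cells of a type and less RNA per cell cannot be told apart. FPKM fixes no common total, and the median log2 difference of all genes tested was 0.43, or 0.43 without calf 3. It was -0.26 after quantile normalization, which split the calls into 3827 higher and 4538 lower in place of 6474 and 1741, and -0.06 after scaling each library to a common median. Differences of members are therefore given relative to the median gene as well.

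BRCA1, MDC1 and TOPBP1 rose, so that 3 of the 9 members (33.3%) were called higher in bulls. Among all genes tested 35.7% were called higher, and 37.9% without calf 3, when the same count of 3 members was reached. limma called 0 members lower at an adjusted p below 0.05 and the required fold, while 1 member, CHEK2, was lower at an unadjusted p below 0.05. CHEK2 also passed the adjusted threshold (adjusted p = 0.0344 by limma) and missed only the fold. Among all genes 9.61% were called lower, and 13.6% without calf 3, when the count was again 0. Without calf 3, 2 members, CHEK2 and BRCA2, were lower at an unadjusted p below 0.05. Both then passed the adjusted threshold (adjusted p = 0.00241 and 0.0492 by limma) at less than the fold required. Every bull lay above every calf for 5 members (55.6%), against 46.1% of all genes, or 53.5% without calf 3. Every bull lay below every calf for 2 members (22.2%), against 21.3% of all genes, or 30.9% without calf 3. Of these, BRCA2 overlapped between the groups, calf 3 included, once its antisense entries, described below, were left out. Its adjusted p without calf 3 was then 0.0683 by limma. The share called higher lies near that of the whole table, the share called lower is below it, and the share with all bulls above all calves exceeds it by less without calf 3. The median log2 difference of the members was 0.62, or 0.23 without calf 3.

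**Figure D1:**
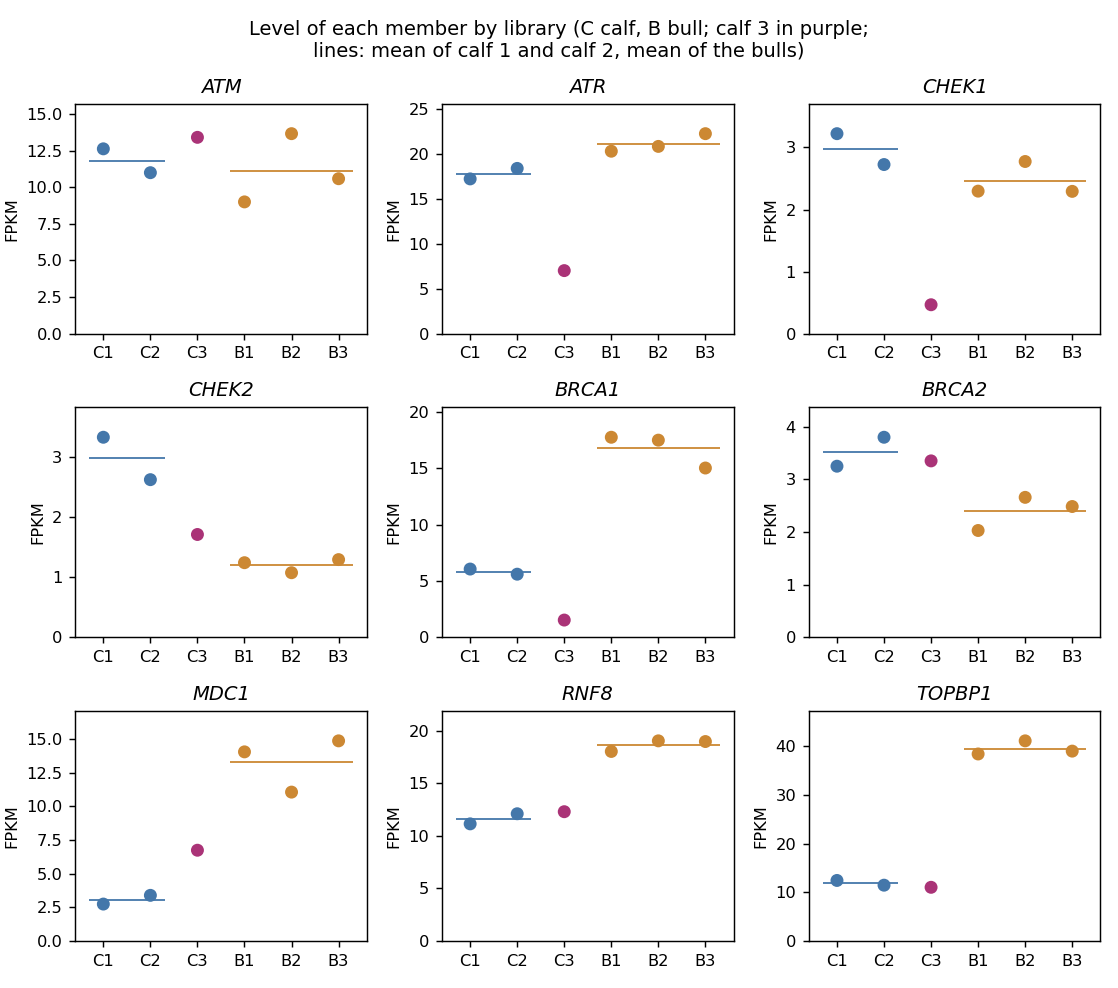
FPKM of the 9 members in each library, calves and bulls side by side, with calf 3 in purple and lines at the mean of calf 1 and calf 2 and at the mean of the bulls. The 3 bulls lie above the 3 calves for ATR, BRCA1, MDC1, RNF8 and TOPBP1, below them for CHEK2 and BRCA2, and among them for ATM and CHEK1.

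ATM (ENSBTAG00000003111, chromosome 15, 17853846 to 17996481) encodes the kinase that answers double-strand breaks. Its FPKM was 12.6, 11.0 and 13.4 in the calves and 8.99, 13.7 and 10.6 in the bulls, both in the order of their numbers, as in all sentences that follow. The groups overlap, with a bull at the lowest and at the highest value. The log2 difference was -0.16 (95% interval -0.64 to 0.32, adjusted p = 0.527 by limma), and -0.10 without calf 3 (-0.56 to 0.36). Without scaling between libraries, the interval stays within the fold required for a call in both directions. Relative to the median gene the difference was -0.59. Under quantile normalization it was -0.71 (adjusted p = 0.0219) and under median scaling -0.65 (adjusted p = 0.0271), which passed the p threshold at less than the fold required.

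A circular RNA made from ATM exons was followed by the authors with a divergent primer pair, whose 2 primers point away from each other on the linear transcript and yield a product across the joined ends. The pair is shown because it marks what the FPKM value of ATM leaves undivided. Fragments from the linear mRNA and from the circle fall on the same exons, and one FPKM value counts them together. No genome sequence was used here, so the primers are printed without a position.
ATM circle forward primer: ttgtgctgctcattttaccg
ATM circle reverse primer: atccacaggcttgtatcatcc
The primers are 20 and 21 bases long. The amount of the circle was not analysed here.

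ATR (ENSBTAG00000011529, chromosome 1, 126471505 to 126591861) encodes the kinase that answers single-stranded DNA. Its FPKM was 17.2, 18.4 and 7.01 in the calves and 20.3, 20.8 and 22.2 in the bulls. Every bull was above every calf, but most of the distance came from calf 3, which had 0.394 times the mean of the other calves. The log2 difference was 0.64 (-0.24 to 1.53, adjusted p = 0.177), and 0.23 without calf 3 (-0.02 to 0.49, adjusted p = 0.0803), so ATR was not called in either comparison. Relative to the median gene the difference was 0.21 with calf 3 and -0.20 without it, and under quantile normalization it was -0.0046.

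CHEK1 (ENSBTAG00000017582, chromosome 29, 29033507 to 29051869) encodes the checkpoint kinase that ATR activates, which delays entry into mitosis. Its FPKM was 3.22, 2.73 and 0.467 in the calves and 2.30, 2.77 and 2.29 in the bulls. Calf 3 alone was low, and the bulls lay around calf 2. The log2 difference was 0.28 with all libraries (-0.75 to 1.3, adjusted p = 0.603) and -0.20 without calf 3 (-0.57 to 0.17, adjusted p = 0.262). The sign of that difference therefore rests on calf 3, and neither value was called. Relative to the median gene the difference was -0.15, or -0.63 without calf 3.

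CHEK2 (ENSBTAG00000004956, chromosome 17, 67975024 to 68013366) encodes the kinase that ATM activates and that acts on CDC25 proteins. Its end overlaps the start of HSCB in the table. The FPKM of CHEK2 was 3.33, 2.62 and 1.71 in the calves and 1.24, 1.07 and 1.29 in the bulls. All bulls lay below all calves, and calf 3 was the calf nearest to them. The log2 difference was -0.66 (SE 0.21, -1.17 to -0.16, adjusted p = 0.0344), which passed the p threshold at less than the fold required, and it was -0.85 without calf 3 (-1.21 to -0.48, adjusted p = 0.00241). Without any other single library the difference was -0.51 to -0.69 and the adjusted p was 0.0806 to 0.108, and with no filter on low values the adjusted p was 0.0700, so the p threshold was then missed. Relative to the median gene it was -1.09, and -1.28 without calf 3. Under quantile normalization the log2 difference was -1.53 and under median scaling it was -1.16, and CHEK2 was called lower in both.

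MDC1 (ENSBTAG00000025526, chromosome 23, 28304399 to 28316822) encodes the scaffold that binds phosphorylated histone H2AX beside a break and on the silenced X and Y chromosomes. Its FPKM was 2.74, 3.38 and 6.74 in the calves and 14.0, 11.1 and 14.9 in the bulls. The lowest bull was above the highest calf, and calf 3 had 2.20 times the mean of the other calves. MDC1 rose from 4.29 ± 2.15 to 13.3 ± 2.0 FPKM (SD, n = 3 each), a log2 difference of 1.5 (SE 0.31, adjusted p = 0.00770), and of 1.81 without calf 3 (adjusted p = 0.000161). It was 1.07 relative to the median gene. Under quantile normalization it was 0.99, just short of the fold required.

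RNF8 (ENSBTAG00000008321, chromosome 23, 11244735 to 11282020) encodes the ubiquitin ligase that MDC1 recruits and that modifies histones around the break. Its FPKM was 11.1, 12.1 and 12.3 in the calves and 18.0, 19.0 and 19.0 in the bulls. The groups were tight and apart, and calf 3 lay beside the other calves at 1.06 times their mean. The ratio of means was 1.58, and the log2 difference of 0.62 (SE 0.13, 0.29 to 0.94, adjusted p = 0.00893) passed the p threshold at less than the fold required. Without calf 3 it was 0.64 (adjusted p = 0.00176). Relative to the median gene it was 0.19, and under quantile normalization it was 0.02.

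TOPBP1 (ENSBTAG00000000526, chromosome 1, 135753514 to 135824423) encodes the protein that switches on ATR. Its FPKM was 12.4, 11.5 and 11.0 in the calves and 38.4, 41.1 and 39.0 in the bulls. No library of either group came near the other group, and calf 3 had 0.923 times the mean of the other calves. TOPBP1 rose from 11.6 ± 0.720 to 39.5 ± 1.42 FPKM (SD, n = 3 each), 3.40 times, with a log2 difference of 1.68 (SE 0.13, adjusted p = 0.000133), and of 1.65 without calf 3 (adjusted p = 2.7e-05). Relative to the median gene the difference was 1.25, or 1.22 without calf 3.

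**Figure D2:**
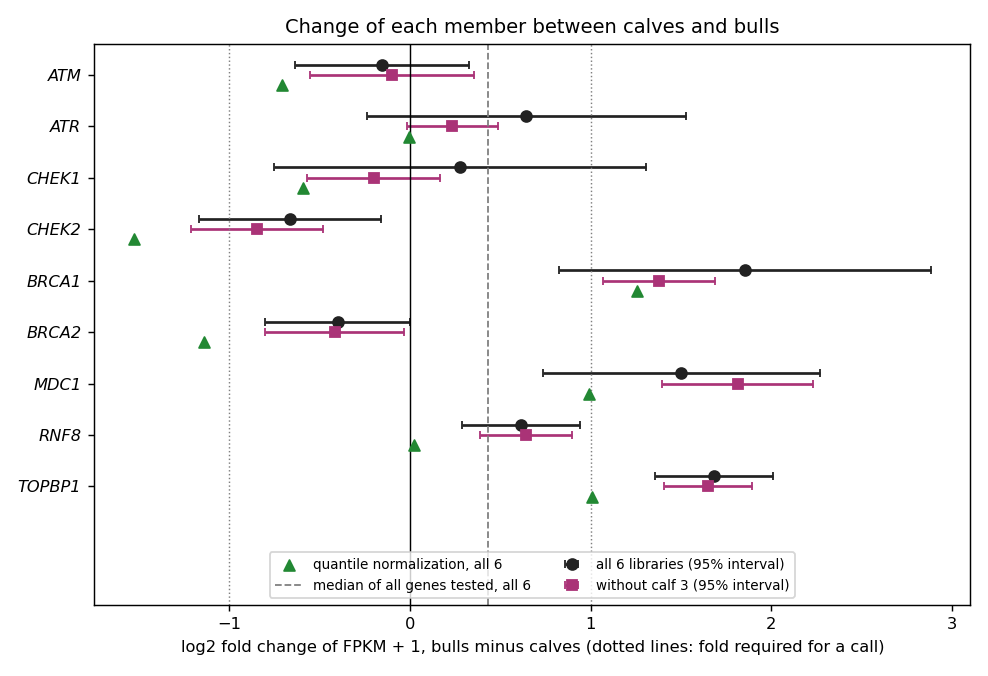
Log2 difference of FPKM + 1, bulls minus calves, for each member with its 95% interval, with all 6 libraries, without calf 3, and as a point without interval after quantile normalization. The dashed line is the median of all genes at 0.43 and the dotted lines mark the fold required. BRCA1, MDC1 and TOPBP1 lie past it with and without calf 3, and quantile normalization moves every member to the left.

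BRCA1 (ENSBTAG00000022520, chromosome 19, 43069372 to 43139018) encodes a ubiquitin ligase that promotes resection and repair by recombination and that brings ATR to the axes of the unpaired sex chromosomes. Its FPKM was 6.06, 5.6 and 1.53 in the calves and 17.8, 17.5 and 15.0 in the bulls. The groups were apart, and calf 3 had 0.263 times the mean of the other calves. BRCA1 rose from 4.40 ± 2.49 to 16.8 ± 1.51 FPKM (SD, n = 3 each), a log2 difference of 1.85 (SE 0.42, 0.82 to 2.88, adjusted p = 0.0108). Without calf 3 the difference was smaller and its interval narrower, at 1.38 (1.07 to 1.69, adjusted p = 0.000149), and the bull mean was 2.87 times that of calf 1 and calf 2. Relative to the median gene the difference was 1.42, or 0.94 without calf 3.

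BRCA2 (ENSBTAG00000000988, chromosome 12, 28616747 to 28667820) encodes the protein that loads recombinases onto single-stranded DNA, in meiosis DMC1 among them. Its FPKM was 3.25, 3.80 and 3.35 in the calves and 2.03, 2.66 and 2.48 in the bulls. All bulls lay below all calves, and calf 3 lay among the calves. The log2 difference was -0.40 (-0.80 to 0.00, adjusted p = 0.0832), and -0.42 without calf 3 (-0.80 to -0.03, adjusted p = 0.0492), which was not called at the fold required. Relative to the median gene the difference was -0.83, or -0.85 without calf 3. Under quantile normalization the log2 difference was -1.14 and BRCA2 was called lower. Under median scaling it was -0.89 (adjusted p = 0.00356 by limma), at less than the fold required.

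The value of BRCA2 in calf 3 was made almost wholly of other entries than the mRNA. The FPKM of the gene is the sum over 4 entries, of which BRCA2-AS1 (28626213 to 28627958) and BRCA2-AS2 (28629265 to 28653343) are antisense transcripts that the authors assembled from the reads. Their summed FPKM was 0.477, 0.478 and 3.11 in the calves and 0.161, 0.296 and 0.274 in the bulls, which was 14.7%, 12.6% and 93.0% of the gene's value in the calves and 7.96%, 11.1% and 11.0% in the bulls. In the other libraries the main entry was the sense transcript BRCA2-202. It had 2.46, 3.32 and 0.0134 FPKM in the calves and 1.86, 2.35 and 1.98 in the bulls. Under quantile normalization its log2 difference was -0.46 (adjusted p = 0.417 by limma). This entry was thus not called lower there, although the gene was. Without the antisense entries, BRCA2 had 2.77, 3.32 and 0.236 FPKM in the calves and 1.87, 2.36 and 2.21 in the bulls. Calf 3 was then far under all other libraries and the groups overlapped, with a log2 difference of 0.21 (-0.99 to 1.41, adjusted p = 0.741), and of -0.36 without calf 3 (adjusted p = 0.0683). These comparisons without antisense entries were added after the values had been seen.

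Of the other members only ATR had an antisense entry, ATR-AS1, with 1.05% of the gene's value in bull 2 and 0.304% in bull 3. The table holds 6223 antisense entries in 3219 genes. Of the genes with such an entry and at least 1 FPKM, the antisense entries made up at least 50% of the value in 21 of 2352, 26 of 2402 and 35 of 2449 genes in the calves. In the bulls these were 280 of 2678, 295 of 2730 and 317 of 2758 genes. BRCA2 belongs to the 35 genes of calf 3 and not to those of any other library.

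In the bulls, TOPBP1 had the highest level of the members with a mean of 39.5 FPKM, followed by ATR at 21.1, RNF8 at 18.7, BRCA1 at 16.8, MDC1 at 13.3, ATM at 11.1, CHEK1 at 2.45, BRCA2 at 2.39 and CHEK2 at 1.20. Neighbours in that order did not overlap in their bull values except MDC1 with ATM and CHEK1 with BRCA2. In calf 1 and calf 2 the highest was ATR with a mean of 17.8 FPKM. TOPBP1 at 11.9, ATM at 11.8 and RNF8 at 11.6 followed with overlapping values, then BRCA1 at 5.83. BRCA2 at 3.52, MDC1 at 3.06, CHEK1 at 2.97 and CHEK2 at 2.97 came last, and they overlapped. With calf 3 included, the calf means ran from ATR at 14.2 through ATM, RNF8, TOPBP1, BRCA1, MDC1, BRCA2 and CHEK2 to CHEK1 at 2.14, and only TOPBP1 and BRCA1 were neighbours that did not overlap. The kinases ATM and ATR thus lay above their checkpoint kinases in both groups.

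Ratios of members within a library do not depend on the scaling of that library, and 7 ratios were compared on the log2 scale. With 3 against 3 libraries a two-sided exact permutation test cannot go below 0.1, so none could pass 0.05. The ratio of TOPBP1 to ATR was -0.47, -0.68 and 0.65 in the calves and 0.92, 0.98 and 0.81 in the bulls. The groups were apart, with a difference of 1.07, or 1.48 without calf 3 (exact permutation p = 0.1, adjusted over the 7 ratios 0.175). TOPBP1 was thus below ATR in calf 1 and calf 2 and above it in every bull.

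The ratio of CHEK1 to CHEK2 was -0.05, 0.06 and -1.87 in the calves and 0.89, 1.37 and 0.83 in the bulls, which were all above the calves. The difference was 1.65, or 1.02 without calf 3 (exact permutation p = 0.1). The ratio of MDC1 to RNF8 was -2.03, -1.84 and -0.87 in the calves and -0.36, -0.79 and -0.35 in the bulls, a difference of 1.08, or 1.43 without calf 3 (exact permutation p = 0.1). MDC1 thus came nearer to the level of RNF8 in the bulls, which all lay above the calves.

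The ratio of BRCA1 to BRCA2 was 0.90, 0.56 and -1.13 in the calves and 3.13, 2.72 and 2.60 in the bulls. The groups were apart, and the difference was 2.71, or 2.09 without calf 3 (exact permutation p = 0.1). Without the antisense entries of BRCA2 the ratio in calf 3 became 2.7, just below the 3.25, 2.89 and 2.77 of the bulls, and the difference was 1.44 (exact permutation p = 0.1). Calf 1 and calf 2 were then at 1.13 and 0.76.

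**Figure D3:**
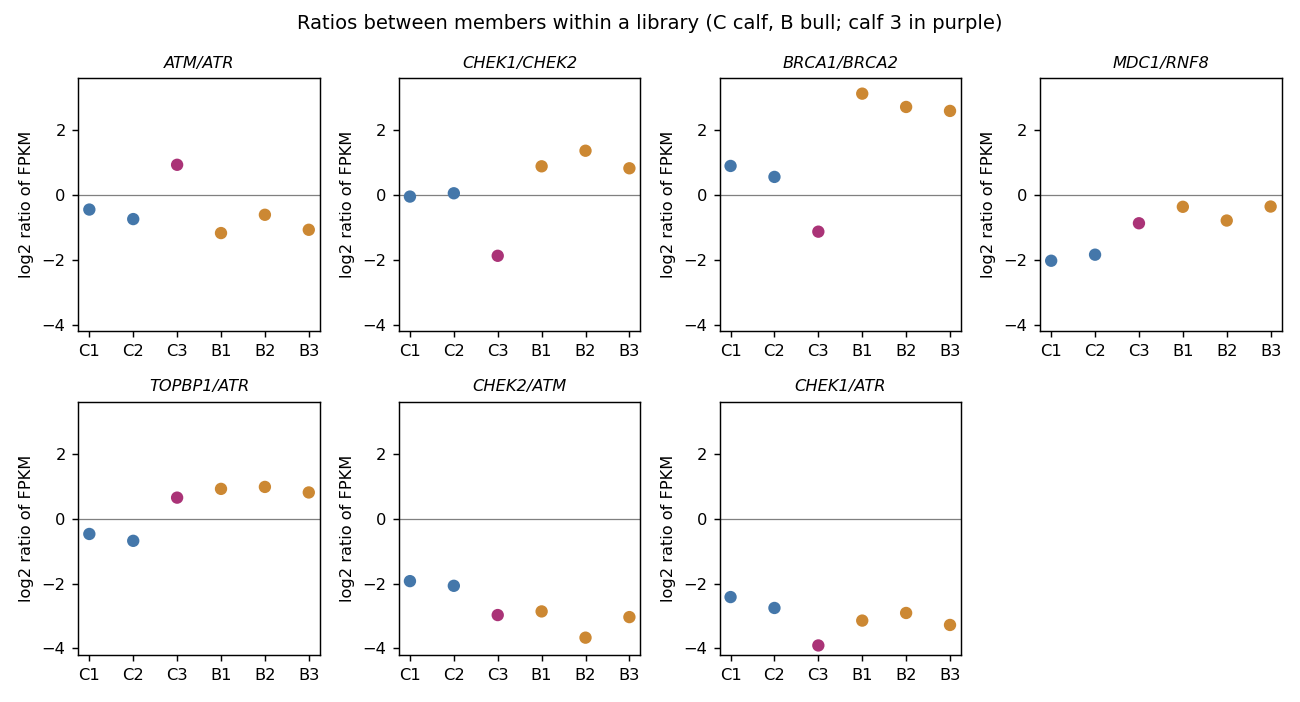
Log2 ratios of pairs of members in each library, with calf 3 marked. The bulls lie above all calves for CHEK1 to CHEK2, BRCA1 to BRCA2, MDC1 to RNF8 and TOPBP1 to ATR, and overlap the calves for the other 3 ratios, of which CHEK2 to ATM and CHEK1 to ATR do so through calf 3 alone.

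The remaining 3 ratios overlapped between the groups with all libraries, and 2 of them did not without calf 3. The ratio of ATM to ATR was -0.45, -0.74 and 0.94 in the calves and -1.17, -0.61 and -1.07 in the bulls, a difference of -0.87, or -0.36 without calf 3 (exact permutation p = 0.2). That of CHEK2 to ATM was -1.92, -2.07 and -2.97 in the calves and -2.86, -3.67 and -3.03 in the bulls, a difference of -0.87, or -1.19 without calf 3 (exact permutation p = 0.2). That of CHEK1 to ATR was -2.41, -2.75 and -3.91 in the calves and -3.14, -2.91 and -3.28 in the bulls, a difference of -0.08, or -0.52 without calf 3 (exact permutation p = 0.9). Without calf 3, all bulls lay below the calves for CHEK2 to ATM and for CHEK1 to ATR, while ATM to ATR still overlapped.

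Among the 32 transcript entries of the members, 15 passed the filter and 6 of these (40%) were called higher, in BRCA1, MDC1, RNF8 and TOPBP1. Of 23212 transcripts tested, 34.8% were called higher, and 36.1% without calf 3, when again 6 entries were. limma called 0 member entries lower, with 1 lower at an unadjusted p below 0.05, and the counts were the same without calf 3. That entry, CHEK2-201, also passed the adjusted threshold (adjusted p = 0.0447, or 0.00587 without calf 3, by limma) and missed only the fold. Among all transcripts 9.37% were called lower, or 13.1% without calf 3. Another 3 entries, ATR-203, TOPBP1-206 and BRCA1-204, were listed at 0 in every library. ATM, CHEK2 and MDC1 have 1 entry each, so their gene and transcript values are the same. FPKM values of entries of 1 gene divide shared fragments by a model, and their differences are less certain than those of the gene.

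RNF8 was the member whose tested entries differed in sign. RNF8-203 was listed at 0 in calf 1 and calf 3 and had 1.63 FPKM in calf 2, against 3.67, 6.0 and 3.48 in the bulls, and it was called higher (adjusted p = 0.0118, and 0.0219 without calf 3). RNF8-202 had 3.50, 2.34 and 3.88 FPKM in the calves and 1.32, 2.57 and 1.55 in the bulls, where bull 2 lay above calf 2. Its log2 difference was -0.60 (adjusted p = 0.10), or -0.49 without calf 3. RNF8-202 was 31.4%, 19.4% and 31.6% of the gene in the calves and 7.30%, 13.5% and 8.16% in the bulls, so that the shares did not overlap although the levels did. RNF8-201, the largest entry, had 4.91, 6.43 and 6.59 FPKM in the calves and 9.58, 8.47 and 11.7 in the bulls, which all lay above (log2 difference 0.64, adjusted p = 0.0372, or 0.71 and 0.0199 without calf 3, fold not reached). RNF8-205 had 2.74, 1.70 and 1.83 FPKM in the calves and 1.33, 0.408 and 2.25 in the bulls, which overlapped. Its log2 difference was -0.47 (adjusted p = 0.287 by limma), or -0.53 without calf 3. Its share of the gene was 24.6%, 14.0% and 14.8% in the calves and 7.39%, 2.14% and 11.8% in the bulls. RNF8-204 was listed at 0 in all calves and in bull 3, with 2.14 and 1.61 FPKM in bull 1 and bull 2.

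The called entries of TOPBP1 were TOPBP1-202, with 8.51, 7.5 and 8.76 FPKM in the calves and 27.2, 26.6 and 27.0 in the bulls, and TOPBP1-207, with 3.03, 2.03 and 2.03 in the calves and 8.47, 12.6 and 10.5 in the bulls. Both had all bulls above all calves, with log2 differences of 1.60 (adjusted p = 0.000252) and 1.77 (adjusted p = 0.00111), or 1.64 and 1.70 without calf 3. BRCA1-201 and BRCA1-202 both rose, by log2 differences of 1.75 (adjusted p = 0.0120) and 1.5 (adjusted p = 0.00831), or 1.31 and 1.18 without calf 3. BRCA1-201 was 57.0%, 57.5% and 56.9% of its gene in the bulls, and 55.2%, 56.8% and 45.5% in the calves, of which calf 3 was the lowest.

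ATR-202 was 59.9%, 63.5% and 60.8% of ATR in the calves and 68.5%, 67.6% and 67.6% in the bulls, where all shares were higher. ATR-205, at 0.424 to 1.10 FPKM in the calves and 0.0653 to 0.275 in the bulls, and ATR-206, at 0.232 to 0.565 and 0.0899 to 0.159, were under the filter and were not tested. CHEK1-201 was 6.21% and 6.68% of CHEK1 in calf 1 and calf 2 and was listed at 0 in calf 3 and all bulls.

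**Figure D4:**
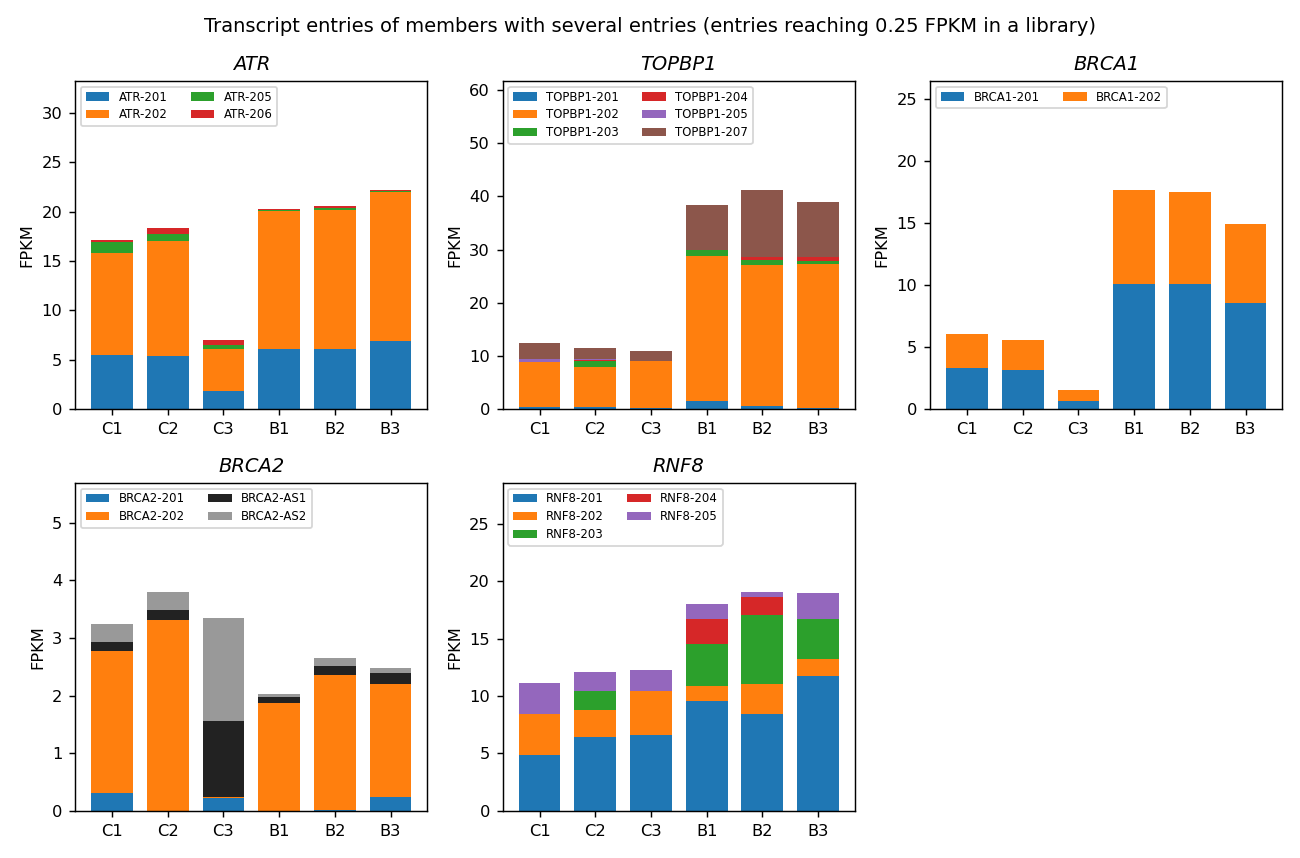
FPKM of the transcript entries of the members stacked by library, for the 5 members with several entries above the level drawn, with the antisense entries in black and grey. The 2 BRCA1 entries and TOPBP1-202 and TOPBP1-207 are higher in every bull, RNF8-203 reaches 3.48 to 6.0 FPKM in bulls, and BRCA2-202 is near 0 in calf 3, where the antisense entries are highest.

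The other genes of the pathway were taken from 6 lists of 89 genes in all, of which 84 were in the table and 82 passed the filter. Of these, 35 (42.7%) were called higher, 4 (4.88%) lower and 43 were not called, beside 35.7% and 9.61% of all genes tested. The median log2 difference was 0.86 beside 0.43 over all genes. Without calf 3 the counts were 33 and 5, beside 37.9% and 13.6% of all genes, and the median was 0.54. Under quantile normalization they were 22 and 8, beside 3827 and 4538 of all 18115 genes, with a median of 0.08. The share called higher was 21.4%, 26.7%, 28.6%, 37.5% and 50% in 5 lists, on both sides of the 35.7% of all genes. It was 86.7% in the list of meiotic partners, which raises the pooled share.

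Genes whose proteins sense breaks and activate ATM had 3 of 8 members called, all higher (median 0.69, or 0.65 without calf 3). XRCC5, the Ku80 end-binding subunit, rose from 9.80 ± 4.57 to 36.3 ± 1.07 FPKM (SD, n = 3 each, log2 difference 1.88, adjusted p = 0.00385, or 1.54 without calf 3). KAT5, the acetyltransferase that acts on ATM, rose with a log2 difference of 1.59 (adjusted p = 0.000439), or 1.54 without calf 3. Genes of ATR activation and the fork checkpoint had 3 of 14 called, all higher (median 0.56, or 0.28 without calf 3). RHNO1, a partner of the clamp that brings TOPBP1 to ATR, rose from 1.91 ± 0.824 to 15.5 ± 2.39 FPKM (SD, n = 3 each, log2 difference 2.53, adjusted p = 0.000526, or 2.27 without calf 3). CLSPN, the adaptor between ATR and CHEK1, rose with a log2 difference of 1.86 (adjusted p = 0.00193), or 1.59 without calf 3.

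Genes of the chromatin response around breaks had 4 of 14 called higher and 1 lower (median 0.46, or 0.44 without calf 3, when 5 were higher and 1 lower). RAD18, a ubiquitin ligase, rose from 3.56 ± 1.0 to 44.0 ± 2.86 FPKM (SD, n = 3 each, log2 difference 3.33, adjusted p = 5.9e-05, or 3.13 without calf 3), and BABAM2, a scaffold of the BRCA1-A complex, rose with a log2 difference of 2.75 (adjusted p = 4.1e-05), or 2.71 without calf 3. BRCC3, the deubiquitinase of the same complex, fell. Its FPKM was 3.26, 4.12 and 11.5 in the calves and 0.535 to 0.662 in the bulls, with a log2 difference of -2.04 (adjusted p = 0.00711), or -1.56 without calf 3.

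Partners of BRCA1 and BRCA2 in homologous recombination had 4 of 15 called, all higher (median 0.42). SEM1, a small protein that binds BRCA2, rose with a log2 difference of 1.60 (adjusted p = 0.00309), or 1.72 without calf 3. Without calf 3, 3 genes of the list were called higher and 1 lower (median 0.28).

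Meiotic partners of the members had 13 of 15 called higher, with a median of 3.02, and 12 without calf 3 with a median of 2.30. Under quantile normalization 10 were called higher and the median was 2.22. HORMAD1 and HORMAD2 encode axis proteins that bring ATR to unpaired chromosomes. HORMAD2 rose from 0.899 ± 0.698 to 80.9 ± 6.11 FPKM (SD, n = 3 each, log2 difference 5.49, adjusted p = 2.77e-05, or 5.26 without calf 3) and HORMAD1 from 2.38 ± 1.99 to 63.6 ± 7.21 (log2 difference 4.48, adjusted p = 0.000697, or 3.88 without calf 3). The genes not called were TEX15 and SCML2.

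Checkpoint effectors, which act downstream of CHEK1 and CHEK2, had 8 of 16 called higher and 3 lower (median 0.97, or 0.69 without calf 3, with 7 higher and 3 lower). CDC25C and CCNB1, which drive entry into division, rose with log2 differences of 3.23 (adjusted p = 0.000570) and 3.15 (adjusted p = 0.00459), or 2.85 and 2.50 without calf 3. PMAIP1, which promotes cell death, fell with a log2 difference of -1.40 (adjusted p = 0.0443), or -1.94 without calf 3.

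**Figure D5:**
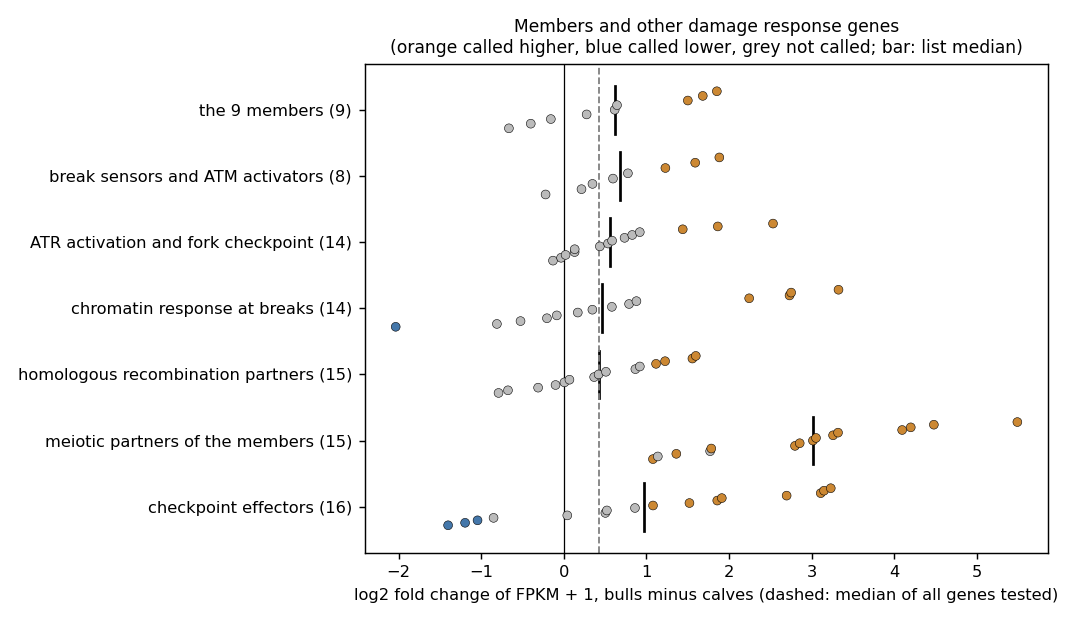
Log2 difference of each tested gene in the 6 pathway lists, bulls minus calves, and of the 9 members, with genes called higher in orange, lower in blue and others in grey, and a bar at each median. The meiotic partners have a median of 3.02, and the other lists have medians of 0.42 to 0.97 beside 0.43 for all genes.

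The make-up of the tissue differed between the groups. The summed FPKM of 11 spermatocyte markers was 13.9 to 41.3 in the calves and 583 to 595 in the bulls, with 10 of 11 called higher. That of 8 round spermatid markers was 0.741 to 2.60 and 755 to 871, and that of 7 elongating spermatid markers 2.22 to 3.07 and 14562 to 16396, all of them called higher. In calf 3, SYCE3 of the spermatocyte list, ODF1 of the elongating list and 4 genes of the round spermatid list were listed at 0. The 10 spermatogonial markers summed to 153, 196 and 284 in the calves and 361 to 378 in the bulls, with 2 called higher and 1 lower. In calf 3, 5 of these 10 lay under 1 FPKM, with DAZL listed at 0, so its sum rests on the other genes of the list. In calf 1 and calf 2, 0 of the 10 lay under 1 FPKM. The 9 Sertoli cell markers summed to 384 to 401 in the bulls, with 1 called lower, and 8 lower without calf 3, and the Leydig cell markers to 1461 to 2599, with 1 called higher.

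The 10 genes of dividing cells summed to 131, 111 and 25.5 FPKM in the calves and 313 to 340 in the bulls, with 7 called higher, or 6 without calf 3. CDK1 stands both in that list and among the checkpoint effectors. The part of these cell types in the differences of BRCA1, MDC1, TOPBP1 and CHEK2 was not tested.

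As a description, with no test, the genes whose log2 levels ran most like ATM over the 6 libraries were ELF1, TMX4, PROCR, RCC2 and CD109, with Pearson correlations of 0.992, 0.976, 0.959, 0.951 and 0.947 among 13279 genes compared. Only 10 genes passed 0.9 for ATM. For BRCA1 there were 2318 such genes, and the nearest were HDAC1, MOV10L1, BLMH, KDM1A and DTL, each at 0.998. The 6 points share their group and, among the calves, the library calf 3.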

How the data were processed

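Total RNA of 6 samples labelled as testis was depleted of ribosomal RNA by the authors and sequenced from strand-specific libraries. The authors used Bowtie2 to drop ribosomal reads, TopHat2 for mapping and StringTie for assembly. The methods name the assembly UMD 3.1.1, and the positions printed are those of the deposited tables, where all 9 members overlapped the locus of the same symbol in the RefSeq annotation of ARS-UCD2.0. The deposited values are FPKM per gene and per transcript. The tool that made them is not given in the sources used here, and without counts the depth behind a value is unknown.

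Here, log2(FPKM + 1) was fitted with limma 3.58.1 in R 4.3.3 (lmFit, eBayes with trend) over all genes or transcripts at 1 FPKM or more in at least 3 libraries, with Benjamini-Hochberg adjustment over all of them. The same genes were kept when a library was left out. On simulated data for genes, 186 of 200 genes changed by a log2 of 2 were recovered and 5 unchanged genes were called. The 16790 genes tested there include the 200 changed genes. The simulated spreads were taken without calf 3, and the changed genes had a mean log2(FPKM + 1) above 2. No shift common to all genes was simulated. These counts therefore do not cover genes under that level or the spread that calf 3 adds. The calves and bulls are separate animals. The members and lists were chosen with earlier results of these data known. Named are all members and, per list, up to 2 called genes in each direction by size of the difference, apart from some that are not reported here. Alternatives were a pseudocount of 0.1, no filter, quantile normalization, median scaling, array weights, no trend, a replicate block, each library left out and, added after seeing the data, antisense entries left out.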

Additional observations from a re-analysis of the deposited data

How the results depend on the processing

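TOPBP1 (log2 difference 1.01 to 1.76) and BRCA1 (1.26 to 2.12) were called higher under all 15 alternatives run, and MDC1 under all but quantile normalization (0.99). The scaling mattered most. With quantile normalization, 3 member transcripts and 22 pathway genes were called higher, and 2 members (CHEK2 and BRCA2), 3 member transcripts and 8 pathway genes lower. The sense entry BRCA2-202 was not among the transcripts called. With median scaling, 4 member transcripts and 25 pathway genes were called higher, and 1 member (CHEK2), 3 member transcripts and 7 pathway genes lower. Without 1 library each, 2 to 5 pathway genes were called lower, with 2 without calf 2 or any single bull and 5 without calf 3. The difference of ATR was -0.0046 with quantile normalization. That of CHEK1 was -0.59 with quantile normalization, -0.22 with median scaling, -0.16 with array weights, -0.20 to 0.56 without 1 library each, negative without calf 3 only, and -0.20 without calf 3 and without antisense entries. That of CHEK1-202 was -0.37, -0.24 and -0.11 under the same 3 settings and -0.13 to 0.60 without 1 library each. That of BRCA2-202 was -0.46, -0.26 and -0.25, and -0.34 to 0.71. That of BRCA2 without antisense entries was 0.21. The cause was not tested.

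The replicate numbers are shared by the groups. Same-numbered calves and bulls had correlations of deviations of 0.0277, 0.0246 and 0.0341, so the numbers were not taken to pair the animals, although each library correlated best with its own number. With the replicate block 3 members were called higher, as without it, 6437 genes in all were higher and 1691 lower, and CHEK2 had an adjusted p of 0.0715. With 3 animals a group, 1 of them of doubtful label, a difference whose interval includes 0 could not be told from none.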
